A study of Homo sapiens with 12 samples.

Results

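The genes described here are mRNAs outside the ribosomal proteins that carry a 5′ terminal oligopyrimidine (TOP) tract or are regulated together with such mRNAs. They are TPT1, GLTSCR2, SLC25A6, EEF1A1, EEF1B2, EEF1D, EEF1G, EEF2, PABPC1 and NAP1L1. The list of 10 genes was chosen by name, with results of these libraries already known. The only measured criterion for analysing a listed gene was that it stands in the expression table. Of the 10, 9 were among the 11548 genes of the table, and EEF1G was not analysed here. All 9 had reads in every library. The lowest mean log2 value of a gene in the table was 4.65, and why EEF1G is absent is not given in the sources used here. Whether a filter on low values before the table was made removed it is therefore unknown. Because earlier results were known when the list was drawn up, the tests below describe these 9 genes and are not independent evidence about them.

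RNA of 3 human hepatocellular carcinoma (HCC) cell lines, Hep3B, MHCC97H and Huh7, was sequenced after 4 treatments. Cells were untreated, received AZD8055 (100 nM), which inhibits the kinase mTOR, received compound #57, an allosteric inhibitor of the phosphatase SHP2, or received both drugs (100 nM of AZD8055 and 5 µM of compound #57). The dose of compound #57 alone is not given in the sources used here. MHCC97H cells were collected after 24 h and Hep3B and Huh7 cells after 48 h, and the effect of exposure time cannot be told apart from that of the line.

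An mRNA of this class begins with a C followed directly by a run of pyrimidines. When mTOR is active, these mRNAs are translated efficiently, and when mTOR is inhibited they leave the polysomes, are bound at their cap by LARP1 and are held in a stable, untranslated pool. Most encode ribosomal proteins, and the genes described here encode mainly elongation factors and other parts of the translation machinery. RNA sequencing measures the amount of mRNA and not its translation.

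The start sites are shown because the first bases define the class. Each line gives the last 10 bases before an annotated RefSeq start and the first 20 bases from it on the sense strand, 30 bases in all on GRCh38.p14, and capitals mark the pyrimidine run that begins at the start with a C. These bases are the upstream flank and the beginning of the first exon, which is 5′ untranslated in these windows except for the last bases of GLTSCR2, where the annotated start codon lies. Entries were found for 8 of the 10 genes.
TPT1: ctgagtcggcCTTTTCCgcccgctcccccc
GLTSCR2: tggctgagttCTTCCTTTgacaagatggcg
SLC25A6: gctgctccgtCCTTTCggtccaggcggcgg
EEF1A1: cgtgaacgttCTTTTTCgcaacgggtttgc
EEF1B2: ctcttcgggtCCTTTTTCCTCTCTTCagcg
EEF2: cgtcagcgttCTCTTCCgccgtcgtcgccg
NAP1L1: gctcttgggtCTTTTTTagcgccatctgct
EEF1G: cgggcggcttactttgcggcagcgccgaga
SLC25A5: cttcgctccgCCCCgcagcgccggagtcaa
The runs held 7 bases in TPT1, EEF1A1, EEF2 and NAP1L1, 8 in GLTSCR2, 6 in SLC25A6 and 16 in EEF1B2. EEF1G started with an A at its annotated start. SLC25A5, a paralog of SLC25A6 that is no member, is shown for comparison and had a run of 4 bases. EEF1B2 had a second annotated start that begins with an A, and the run above belongs to the other one.

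The windows lie at chr13:45341164-45341193 on the minus strand for TPT1, chr19:47745536-47745565 on the plus strand for GLTSCR2 (now named NOP53) and chrX:1392094-1392123 on the minus strand for SLC25A6, in the pseudoautosomal region. They lie at chr6:73521013-73521042 (minus) for EEF1A1, chr2:206159885-206159914 (plus) for EEF1B2, chr19:3985444-3985473 (minus) for EEF2 and chr12:76084666-76084695 (minus) for NAP1L1. The window of EEF1G is chr11:62573872-62573901 (minus) and that of SLC25A5 is chrX:119468434-119468463 (plus). A start with a C and at least 4 further pyrimidines, read on the sense strand alone, was found at 1 or more annotated starts of 7 of the 8 genes. Of all 35116 windows in the RefSeq table, 4.07% begin in this way, and of the 9266 genes of the expression table with an entry, 7.73% have at least 1 such start. Because the members were listed as mRNAs of this class, their count follows largely from the choice of the list and is not a finding. A match describes the annotated start and does not show where transcription began in these cells.

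Each cell line and treatment has 1 library, so that no value has a replicate and no test can be made within a cell line. Library sizes ran from 10667343 to 15968317 reads, and the deposited log2 values gave whole reads throughout. Exact 95% Clopper-Pearson intervals of a member's change within a line were at most 0.255 wide on the log2 scale and cover counting error only. Values are given as reads per 10000000 reads of the library, and changes as log2-fold changes. The hepatocyte markers ALB, AFP, APOA1, APOB, TTR, SERPINA1, HNF4A and GPC3 all had at least 518 reads in every Hep3B and Huh7 library. MHCC97H had 775 to 2041 reads of HNF4A, 203 to 834 of ALB, at most 10 of APOA1, at most 6 of GPC3 and at most 3 of TTR, so that several defining hepatocyte markers were close to absent from this line. These are cultured lines, and in bulk RNA fewer cells that express a marker and less of its RNA per cell cannot be told apart.

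EEF1A1 and EEF2 carry out the elongation steps of translation. EEF1A1 brings aminoacyl-tRNA to the ribosome. In Hep3B, EEF1A1 had 54662 reads per 10000000 in untreated cells, 100383 with AZD8055, 41847 with compound #57 and 100562 with the combination. The MHCC97H libraries held 29193, 42974, 24348 and 47321 in the same order, and the Huh7 libraries 56752, 91135, 41579 and 83998. Within every cell line both libraries with AZD8055 were above both without it. The annotation holds 49 pseudogenes of EEF1A1, 4 of which are in the table under their own names, and because the counting is not given, how reads of such near-identical copies were assigned is unknown and the count of EEF1A1 is uncertain. It also holds 15 pseudogenes of TPT1, 13 of PABPC1, 8 each of EEF1B2 and EEF1D, 6 of SLC25A6 and 3 of NAP1L1. None of these is in the table under its own name, and the same limit applies to the counts of those members.

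EEF2 moves the ribosome along the mRNA by translocation. Its reads per 10000000 were 37803 in untreated Hep3B cells, 52853 with AZD8055, 29643 with compound #57 and 77366 with the combination. MHCC97H had 22887, 33908, 19369 and 38821 in this order. Huh7 had 23827, 44467, 20399 and 57517. In each line the combination gave the highest and compound #57 alone the lowest value of the 4 libraries, with a span of 2.61-fold in Hep3B, 2.0-fold in MHCC97H and 2.82-fold in Huh7.

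EEF1B2 and EEF1D are subunits of the exchange factor that returns EEF1A1 to its GTP-bound form. EEF1B2 had 3403 reads per 10000000 in untreated Hep3B cells, 4309 with AZD8055, 2157 with compound #57 and 3241 with the combination. In MHCC97H the values were 2062, 1972, 1770 and 1881, and in Huh7 3090, 3238, 2343 and 2765. The lowest value of EEF1B2 in each line was that of compound #57 alone, and the combination was below the untreated library in all 3 lines.

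EEF1D had 3088, 3461, 2585 and 3229 reads per 10000000 in Hep3B (untreated, AZD8055, compound #57, combination). In MHCC97H it had 4797, 4147, 4234 and 4389, and in Huh7 1946, 2058, 1727 and 2139. The cell lines did not overlap in EEF1D, with MHCC97H highest and Huh7 lowest, and within a line the libraries spanned 1.34-fold or less.

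PABPC1, the cytoplasmic poly(A)-binding protein, had 12689 reads per 10000000 in untreated Hep3B cells, 15572 with AZD8055, 7543 with compound #57 and 13962 with the combination. MHCC97H had 26114, 28243, 26508 and 33048, and Huh7 had 10020, 12470, 8166 and 14493. All 4 MHCC97H libraries were above the 8 others, while Hep3B and Huh7 overlapped.

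TPT1 encodes translationally controlled tumour protein, a small abundant protein. It had 4594 reads per 10000000 in untreated Hep3B cells, 7662 with AZD8055, 4701 with compound #57 and 8635 with the combination. MHCC97H had 2653, 4669, 2754 and 4798, and Huh7 had 10691, 17324, 10381 and 16908. The Huh7 libraries were all above those of the other lines, which overlapped, and in each line the untreated and compound #57 libraries lay close together below the pair with AZD8055.

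GLTSCR2 is a nucleolar protein of ribosome assembly. Its reads per 10000000 in Hep3B were 1139 untreated, 2122 with AZD8055, 1065 with compound #57 and 2634 with the combination. They were 847, 2363, 807 and 2550 in MHCC97H and 771, 1544, 833 and 1766 in Huh7. The 3 lines overlapped in level, and in each of them both libraries with AZD8055 were above both without it. NOP53-AS1 overlaps GLTSCR2 on the opposite strand, and the strand setting of the counting is not given in the sources used here. TPT1, EEF1A1, EEF1D and NAP1L1 also have annotated genes on the opposite strand, among them MTO1 at EEF1A1 and TIGD5 at EEF1D. The same limit applies to their counts.

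SLC25A6 is an exchanger of ADP and ATP in the inner mitochondrial membrane. It had 1665 reads per 10000000 in untreated Hep3B cells, 2999 with AZD8055, 1517 with compound #57 and 3507 with the combination. The values were 1747, 3185, 1600 and 3244 in MHCC97H and 2312, 4319, 2167 and 5294 in Huh7. Across all 3 lines, each library with AZD8055 was above each library without it. The share of all genes that show this, or the separations of libraries and lines given for the other members, is not given here.

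NAP1L1, a histone chaperone, had 6997 reads per 10000000 in untreated Hep3B cells, 9114 with AZD8055, 6850 with compound #57 and 14845 with the combination. It had 8120, 9820, 8343 and 12066 in MHCC97H and 7749, 13216, 7810 and 16979 in Huh7. The untreated and compound #57 libraries of a line were close, and the combination was the highest library of every line.

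Together, the 9 genes took 1.26% of the reads of untreated Hep3B cells, 0.984% of MHCC97H and 1.17% of Huh7. AZD8055 libraries had shares of 1.98%, 1.31% and 1.9%. With compound #57 alone they were 0.979%, 0.897% and 0.954%, the lowest of each line. With the combination they were 2.28%, 1.48% and 2.02%, the highest of each line. EEF1A1 and EEF2 alone accounted for between 0.437% and 1.78% of a library. The share of the cytosolic ribosomal protein genes was also lowest with compound #57 alone in each line. It was then 2.39% in Hep3B, 2.57% in MHCC97H and 2.58% in Huh7.

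**Figure D1:**
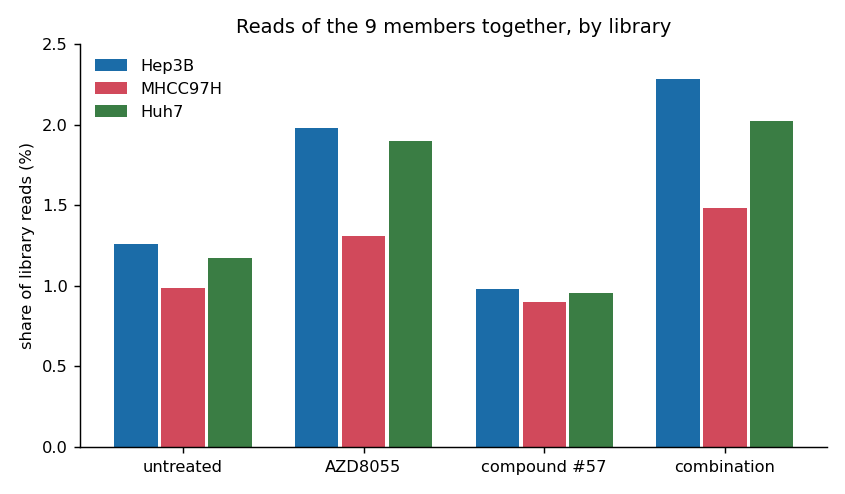
Share of library reads (vertical axis, percent, from 0) taken by the 9 genes together in each of the 12 libraries, grouped by treatment, with 1 bar per cell line and no error bars because each bar is 1 library. In each line the bar of the combination is the highest, between 1.48% and 2.28%, and that of compound #57 alone the lowest, between 0.897% and 0.979%.

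The first comparison asks how these mRNAs responded to inhibition of mTOR. GLTSCR2, SLC25A6 and TPT1 rose with AZD8055 against untreated cells, and no member was called lower. GLTSCR2 was 1.86-fold higher in Hep3B, 2.79-fold in MHCC97H and 2.0-fold in Huh7. The log2-fold changes of SLC25A6 lay close together in the 3 lines, at 0.85, 0.87 and 0.90, as did those of TPT1, at 0.74, 0.82 and 0.70. In limma, fitted to all genes with the cell line as a term, the coefficient was 1.13 (SE 0.14, adjusted p = 0.0221) for GLTSCR2, 0.87 (SE 0.10, adjusted p = 0.0154) for SLC25A6 and 0.75 (SE 0.11, adjusted p = 0.0268) for TPT1.

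EEF1A1 and EEF2 lay just outside the threshold of 0.05, with limma coefficients of 0.71 (SE 0.17, adjusted p = 0.0539) and 0.65 (SE 0.17, adjusted p = 0.0585). Both were higher with AZD8055 in 3 of 3 lines, EEF1A1 by 1.47-fold to 1.84-fold and EEF2 by 1.4-fold to 1.87-fold. NAP1L1 (0.48, SE 0.16, limma adjusted p = 0.0955) and PABPC1 (0.24, SE 0.18, limma adjusted p = 0.408) were also higher in 3 of 3 lines. EEF1B2 and EEF1D had coefficients of 0.11 (SE 0.14) and 0.01 (SE 0.11), and both were lower in MHCC97H, by -0.06 and -0.21, and higher in the other lines.

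Of the 9 genes, 3 were called higher with AZD8055, where 2.21% of all genes were. Their median coefficient was 0.65, against 0.03 over all genes. Calls in the whole table depended on the lines and libraries in the fit. Without Hep3B 0 members and 1 gene of all were called higher, without Huh7 0 and 0, without MHCC97H 2 members (GLTSCR2 and SLC25A6) and 88 genes, and with only the libraries of the treatments compared 0 members and 2 genes.

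The same drug can be read a second time in cells that also received compound #57. The coefficients come from libraries that the first comparison does not use. Both limma tests share the estimate of a gene's spread from all 12 libraries, so that their p-values are not independent. With the combination against compound #57 alone, GLTSCR2, EEF2, SLC25A6, EEF1A1, NAP1L1 and TPT1 rose. EEF2 was 2.61-fold higher in Hep3B, 2.0-fold in MHCC97H and 2.82-fold in Huh7, and EEF1A1 2.4-fold, 1.94-fold and 2.02-fold. NAP1L1 was 2.17-fold higher in Hep3B and in Huh7 and 1.45-fold in MHCC97H. The limma coefficients were 1.35 (SE 0.14, adjusted p = 0.00836) for GLTSCR2, 1.29 (SE 0.17, adjusted p = 0.0137) for EEF2, 1.17 (SE 0.10, adjusted p = 0.00266) for SLC25A6, 1.08 (SE 0.17, adjusted p = 0.0218) for EEF1A1, 0.92 (SE 0.16, adjusted p = 0.025) for NAP1L1 and 0.79 (SE 0.11, adjusted p = 0.0137) for TPT1.

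PABPC1 did not pass the threshold (0.68, SE 0.18, limma adjusted p = 0.0653), with 0.89 in Hep3B, 0.32 in MHCC97H and 0.83 in Huh7. EEF1B2 (0.30, SE 0.14) and EEF1D (0.23, SE 0.11) had the smallest coefficients here as well, with limma adjusted p-values of 0.217 and 0.244. The count was 6 of 9 called higher, where 2.62% of all genes were, and the median coefficient was 0.92 against 0.03 over all genes. Without Hep3B 0 members and 1 gene of all were called higher, without Huh7 0 and 0, and without MHCC97H 5 members, EEF1A1 being the one lost, and 178 genes. With only the libraries of the treatments compared, 2 members and 173 genes were.

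Taking both settings, each gene has 6 pairs of libraries that differ in AZD8055, and no library occurs in more than 1 pair. TPT1, GLTSCR2, SLC25A6, EEF1A1, EEF2, PABPC1 and NAP1L1 were higher with AZD8055 in 6 of 6 pairs. This is 7 of 9 members, while 17.5% of all genes were higher in every pair. The lowest of the 6 changes was 0.70 in TPT1, 0.90 in GLTSCR2, 0.85 in SLC25A6 and 0.56 in EEF1A1. EEF1B2 and EEF1D were higher in 5 of 6 pairs, the exception being untreated MHCC97H cells against those with AZD8055. TPT1 had the narrowest range over the pairs, from 0.70 to 0.88, and EEF2 a wide one, from 0.48 to 1.50.

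**Figure D2:**
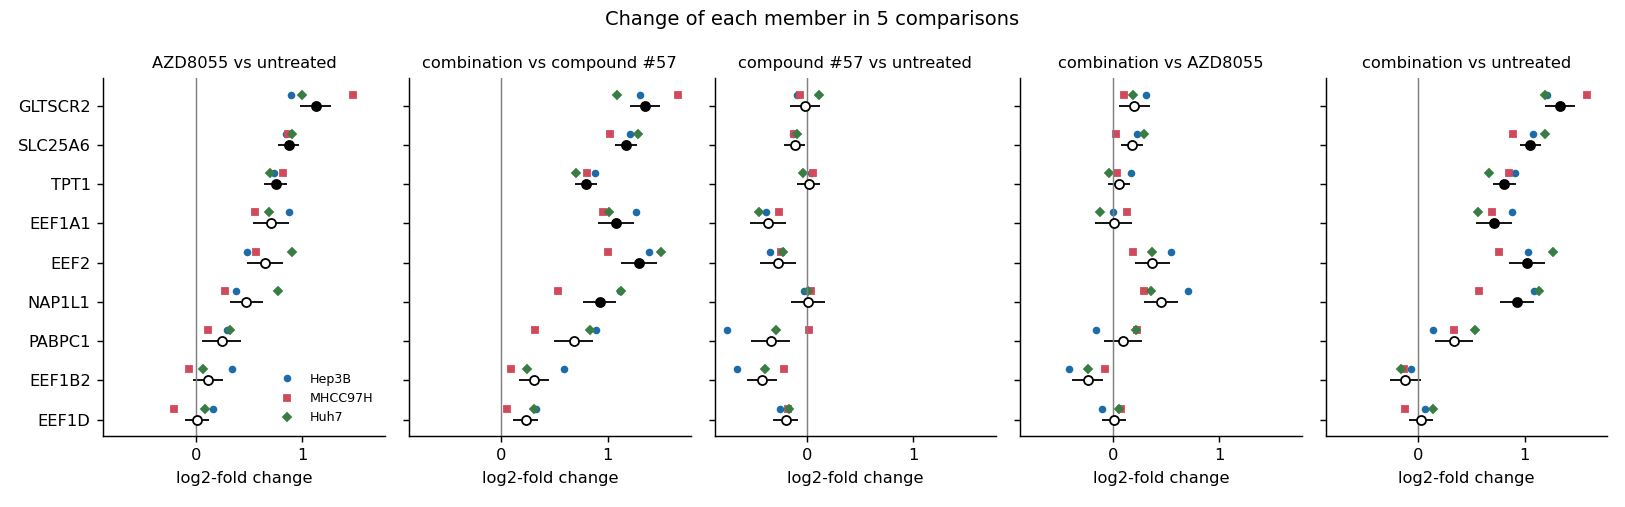
Log2-fold change (horizontal axis) of each of the 9 genes (vertical axis) in 5 comparisons. Black circles are limma coefficients over the 3 cell lines with bars of 1 SE, filled where the adjusted p over all genes is under 0.05, and coloured points are the changes within each line. The filled circles are 3 in the first panel, 6 in the second, 0 in the next pair and 6 in the last, all to the right of 0.

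Compound #57 alone was compared with untreated cells. In this comparison no member passed the threshold. The largest limma coefficient in size was that of EEF1B2 (-0.43, SE 0.14, adjusted p = 0.15), which changed by -0.66 in Hep3B, -0.22 in MHCC97H and -0.40 in Huh7. EEF1A1 (-0.37, SE 0.17), EEF2 (-0.27, SE 0.17) and EEF1D (-0.20, SE 0.11) were below the untreated library in 3 of 3 lines. SLC25A6 (-0.12, SE 0.10) was also below it in each line. The share of all genes lower in 3 of 3 lines is not given here. PABPC1 changed by -0.75 in Hep3B and -0.30 in Huh7 and by 0.02 in MHCC97H. TPT1, GLTSCR2 and NAP1L1 had coefficients between -0.02 and 0.01. The limma calls were 0 of 9 members and 1 gene of the whole table (0.00866%). At an unadjusted p under 0.05 there were 2501 genes, with EEF1B2 as the only member, and voom with limma on the whole reads called 71 genes higher and 19 lower, none of them a member. Without MHCC97H, 467 genes were called higher and 311 lower, again with 0 members.

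Adding compound #57 to AZD8055 gave no member and no gene at all past the threshold in limma (0.0% of the table), with 1673 genes at an unadjusted p under 0.05 and 0 calls by voom. NAP1L1 (0.45, SE 0.16, limma adjusted p = 0.266) and EEF2 (0.37, SE 0.17, limma adjusted p = 0.345) were the members with an unadjusted p under 0.05. Both were higher in 3 of 3 lines. EEF1A1 had a coefficient of 0.01 (SE 0.17) and EEF1B2 one of -0.24 (SE 0.14). Over the 6 pairs of libraries that differ in compound #57, EEF1B2 was lower in 6 of 6, by -0.07 to -0.66. It was 1 of 9 members, where 9.16% of all genes were lower in every pair.

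With both drugs against untreated cells, 6 of 9 members were called higher in limma (20.9% of all genes) and 0 lower (15.1%). They were GLTSCR2 (1.33, SE 0.14), SLC25A6 (1.05, SE 0.10), EEF2 (1.02, SE 0.17), NAP1L1 (0.93, SE 0.16), TPT1 (0.81, SE 0.11) and EEF1A1 (0.71, SE 0.17), with limma adjusted p-values from 0.00119 to 0.012. These are the members called in the comparison with compound #57 alone, and both comparisons share the libraries of the combination. Between untreated cells and the combination, EEF2 and NAP1L1 differed by 2.05-fold and 2.12-fold in Hep3B, 1.7-fold and 1.49-fold in MHCC97H and 2.41-fold and 2.19-fold in Huh7. PABPC1 (0.34, SE 0.18, limma adjusted p = 0.168), EEF1D (0.02, SE 0.11) and EEF1B2 (-0.12, SE 0.14) were not called. The median coefficient was 0.81 against 0.09 over all genes. Without Huh7 0 members and 11 genes of all were called higher, without Hep3B 5 members and 1030 genes, and without MHCC97H 5 members and 2067 genes, EEF1A1 being the member lost each time.

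Whether AZD8055 moved these genes more in the presence of compound #57 was asked by subtracting the change without it from the change with it. This difference, which is also the combination minus the sum of both single changes, was above 0 in 9 of 9 members in Hep3B (median 0.39), 8 of 9 in MHCC97H (0.21) and 9 of 9 in Huh7 (0.33). In all 3 lines it was above 0 in 8 of 9 members and in 14.0% of all genes, and the medians over all genes were 0.02, -0.04 and 0.00. The pattern was not particular to the members. Of the lists described below, 74 of 79 ribosomal protein genes and 11 of 14 further TOP mRNAs were above 0 in all 3 lines. Their medians were above those of the members in each line, at 0.47, 0.27 and 0.37 and at 0.58, 0.29 and 0.48. Of the members, EEF2 differed most, with 0.90 in Hep3B, 0.44 in MHCC97H and 0.60 in Huh7. TPT1 differed least, with 0.14, -0.02 and 0.01. None of these differences passed the limma test of the difference itself. The coefficient of EEF2 was 0.64 (SE 0.24) with an unadjusted p of 0.0213 and an adjusted p of 1.0 in limma, and 0.0% of all genes were called, with 178 genes at an unadjusted p under 0.05 and 0 calls by voom. This test was chosen after the data were seen.

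The other genes of the class and of the pathway were described by fixed lists. Of 15 further TOP mRNAs, 14 were analysed. Their median coefficient was 0.25 with AZD8055 against untreated cells and 0.74 with the combination against compound #57, and 2 and 7 of them were called higher. EIF3L and EIF4B rose in both comparisons, by 0.55 and 0.58 without and 0.89 and 1.05 with compound #57 (limma adjusted p = 0.0382, 0.0442, 0.0105 and 0.0105). EIF3L is a subunit of initiation factor eIF3, and EIF4B assists the helicase eIF4A. Of the 14, 8 were higher in 6 of 6 pairs.

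The 79 cytosolic ribosomal protein genes had medians of 0.18 and 0.55 in the same comparisons, with 2 and 40 called higher and none lower. Their largest coefficients belonged to RPL13A, with 0.51 (limma adjusted p = 0.0462) and 0.96 (limma adjusted p = 0.0104). Of the 79, 44 were higher with AZD8055 in 6 of 6 pairs and none lower in 6 of 6. The medians of the 9 members, 0.65 and 0.92, were above those of these 2 lists in both comparisons, and this difference was not tested. With compound #57 against untreated cells, all 79 ribosomal protein genes had a coefficient below 0, where 5103 of the 11548 genes did. The median of the 79 was -0.345, against -0.203 for the members and 0.047 over all genes, and none was called.

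Paralogs of the members, which encode similar proteins, were described from a list of 13 genes. None of the 7 analysed was called with AZD8055 in either comparison, and their medians were -0.14 and -0.08. EEF1A2, a tissue-restricted form of EEF1A1, had the highest coefficients, 0.88 (SE 0.50, limma adjusted p = 0.276) and 1.11 (SE 0.50, limma adjusted p = 0.197). PABPC1L had 0.53 (SE 0.39), with 0.56, 0.68 and 0.36 in Hep3B, MHCC97H and Huh7, and -0.01 (SE 0.39). SLC25A5, the paralog of SLC25A6 shown above, had coefficients of -0.61 (SE 0.21, limma adjusted p = 0.1) and -0.21 (SE 0.21, limma adjusted p = 0.558). PABPC4 and NAP1L4 had -0.14 and -0.19 in the first comparison and 0.29 and -0.08 in the second. EEF1A2 was called higher with the combination against untreated cells (1.61, SE 0.50, limma adjusted p = 0.0311), with 2.70 in Hep3B, -0.29 in MHCC97H and 2.43 in Huh7. The change of EEF1A2 in Huh7 rests on few reads, 25 in the untreated library and 103 with the combination. EEF1E1, an accessory protein of tRNA synthetases, was called lower in this comparison (-0.94, SE 0.18, limma adjusted p = 0.00566).

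The 29 translation factors listed apart from the members and the further TOP mRNAs had medians of -0.32 and -0.15 with AZD8055, with 0 and 2 called higher and none lower. EIF2A (0.67, limma adjusted p = 0.0444) and EIF3D (0.64, limma adjusted p = 0.0497) rose with the combination against compound #57. EIF4E and EIF4G1 are also in the list of regulators, and EEF1E1 in that of paralogs. Of the 29, none was higher in 6 of 6 pairs and 11 were lower in 6 of 6. The share of all genes lower with AZD8055 in every pair is not given here. With both drugs against untreated cells, 14 of the 29 were called lower and 2 higher, where 15.1% of all genes were called lower and 20.9% higher. The largest falls were those of the hypusine-containing factor EIF5A (-1.35), of VARS (-1.15), the valyl-tRNA synthetase, and of the cap-binding protein EIF4E (-1.02), with limma adjusted p-values of 0.00263, 0.00288 and 0.00988.

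The 17 analysed genes that regulate TOP translation include LARP1, MTOR and the repressors of cap binding. None was called with AZD8055 against untreated cells, where the median was -0.16. EIF4EBP1, which encodes a translational repressor that mTOR phosphorylates, fell with the combination against compound #57 (-1.03, SE 0.21, limma adjusted p = 0.0366), and its changes were -0.56, -1.12 and -1.41 in Hep3B, MHCC97H and Huh7. Against untreated cells, 9 of the 17 were called lower with both drugs and none higher, where 15.1% of all genes were called lower and 20.9% higher. Among the 9 were EIF4EBP1 (-1.30), EIF4E (-1.02) and EIF4G1 (-0.82). LARP1 had coefficients of -0.16 (SE 0.12) with AZD8055 and -0.42 (SE 0.12, limma adjusted p = 0.0249) with both drugs.

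A set of genes with the same kind of start but outside the members, the further TOP mRNAs and the ribosomal proteins was put together after the data were seen. These 656 genes have a C and at least 4 pyrimidines at 1 or more annotated starts. With the combination against compound #57 their median coefficient was 0.14, against 0.01 for the 8550 genes with other starts, and 6.71% of them were called higher, against 1.94%. With AZD8055 against untreated cells the medians were 0.05 and 0.02, and the shares were 2.74% and 2.16%. The difference between these sets was not tested. The start was present in 6 of 8 further TOP mRNAs, 47 of 63 ribosomal protein genes, 5 of 25 translation factors, 0 of 15 regulators and 0 of 5 paralogs that had an entry. The further TOP mRNAs were listed as such, so that their count also follows largely from that choice.

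The members did not all vary alike over the 12 libraries. With each cell line centred on its mean, the Pearson correlation of a gene with the mean of the other members was between 0.85 and 0.98 in 7 genes, and highest in SLC25A6. It was 0.63 in EEF1D and 0.50 in EEF1B2. The genes outside the list that followed the members' mean most closely were EIF3L (0.992), RPL13 (0.978), EIF4B (0.977), RPL10 (0.976) and RPL13A (0.976). These values rest on 12 libraries with 4 treatments in common and describe likeness alone.

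Hepatocyte markers moved with the treatments in the same libraries. Summed over the 8 markers, Hep3B had 336267 reads per 10000000 in untreated cells, 204058 with AZD8055, 539820 with compound #57 and 255794 with the combination, and Huh7 had 401539, 315091, 470068 and 356924. In both lines the sum was lower with AZD8055 than in untreated cells and lower with the combination than with compound #57, and it was higher with the combination than with AZD8055 alone. MHCC97H had 1221, 1302, 2065 and 2156 in the same order of treatments. ALB and AFP make up a large part of these sums, and not all markers moved alike. GPC3 had 11088 reads per 10000000 in untreated Hep3B cells and 12043 with AZD8055, and 10665 and 13303 in Huh7. Of the 8 markers, none was called with AZD8055 in either comparison. The sum of PECAM1, COL1A1 and COL1A2, listed as markers of other cells, was between 48 and 1628 reads per 10000000, and PTPRC and CD3E were not analysed here. These genes were not absent from the cultured lines. PECAM1 had 371 to 617 reads in MHCC97H and at most 27 in Hep3B, and COL1A2 had 732 to 1528 in Huh7 and at most 2 in MHCC97H. The part of these markers in the results was not tested.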

How the data were processed

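TruSeq RNA libraries were aligned to hg38, and the authors deposited a table of log2 values, 1 for each gene in each library. The aligner, the counting and its strand setting are not given in the sources used here. The deposited log2 values equal log2(reads × 10000000 / library reads + 1) + 0.001, and whole reads followed within a tolerance of 0.01 of a read. Of the names, 18 were numbers and were tested unnamed, and 4 stood on 2 lines.

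limma 3.58.1 (R 4.3.3) was fitted to all 11548 genes and 12 libraries with terms for the treatment and for the cell line (lmFit, then eBayes with an intensity trend). Libraries of a cell line form the pairs, since the line is the same. Separate cultures are not stated. The line term removes differences in level between the lines. The p-values therefore rest on how far the changes with treatment differed between the lines, over all 4 treatments and together with differences between single libraries. A Benjamini-Hochberg adjusted p under 0.05 was a call.

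The members and all lists (further TOP mRNAs, ribosomal proteins, translation factors, regulators, paralogs, markers) were chosen with earlier results of these data known. Named were all members, any paralog or regulator, up to 3 called genes per list, comparison and direction, and the 5 genes most like the members' mean. Genes were matched by symbol or synonym to GENCODE 44 (96.8%) and to RefSeq starts on GRCh38.p14 (80.2%). Alternatives were 10 in place of 1 added, the 75% of genes with the highest mean, 2 scalings, no cell line term, only the libraries compared, each line left out, and voom. The pairs, the test of the difference between AZD8055 changes and the set of genes by their start were chosen after the data were seen. limma was tested on simulated data. Python 3.11.15, pandas 2.3.3, scipy 1.17.1 and matplotlib 3.10.9 were used.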

Additional observations from a re-analysis of the deposited data

How the results depend on the processing

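No called member and no median of the members changed its direction. Coefficients within 0.05 of 0 that were not called, among them those of EEF1D, changed sign under some alternatives. With 3 cell lines and 1 library each, the number of calls depended on the fit, for the members as for all genes. With AZD8055 against untreated cells, 3 members were called, 0 without the cell line term, that is, without the pairing (0 of all genes higher), 0 with only the libraries compared (2 genes), 5 with voom (312 genes), and 0 to 2 with 1 line left out (0 to 88 genes). With the combination against compound #57, 6 were called, 0 without the cell line term (0 genes), 2 with only the libraries compared (173 genes) and 0 to 5 with 1 line left out (0 to 178 genes). With both drugs against untreated cells, 6 were called, 0 without the cell line term (0 genes) and 0 to 5 with 1 line left out (11 to 2067 genes). Leaving out a line or the line term leaves fewer samples or a larger spread. The median coefficient of the members ranged from 0.525 to 0.692 for AZD8055, -0.218 to -0.137 for compound #57, 0.069 to 0.152 for the combination against AZD8055 and 0.826 to 1.118 for the combination against compound #57 with 1 line left out, and it was -0.27 for compound #57 with centred libraries. The cause was not tested. All other counts of members stayed within 1.5 times, and all other medians within 1 SD of the medians of the cell lines. Centring the libraries moved the split of all calls from 255 higher and 87 lower to 256 and 217 for AZD8055, and from 2410 and 1744 to 1993 and 2229 for both drugs. The count of members higher with AZD8055 in every pair, a measure chosen after the data were seen, was 7 to 9 with 1 line left out. Fewer pairs then remain, so that this count can only stay or rise. The 9 came without MHCC97H, the line of the exceptions in EEF1B2 and EEF1D. The share of all genes with 1 line left out is not given here.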
